A study of Homo sapiens with 10 samples.

Results

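The genes described here are 9 lysine acetyltransferases, EP300, CREBBP, KAT2A, KAT2B, KAT5, KAT6A, KAT6B, KAT7 and KAT8, chosen by name. All 9 were matched by Ensembl ID among the 55889 genes of the series. The series compared KOPT-K1 cells, an established human line of T-cell acute lymphoblastic leukaemia (T-ALL), after 45 minutes in DMSO, the solvent control, or in silvestrol at 25 nM. Silvestrol is a plant-derived inhibitor of eIF4A, the helicase that unwinds mRNA leaders during translation initiation. Each treatment had 2 libraries of ribosome-protected fragments (footprints) and 3 libraries of total RNA, 10 libraries in all. No other agent or genotype enters the groups, and all libraries come from this 1 line. The labels do not say whether replicates were separate cultures, so p-values measure how far these libraries differ, and that spread may be only technical.

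Lysine acetyltransferases move an acetyl group from acetyl-CoA to histones and other proteins, and acetylated histones mark active promoters and enhancers. EP300 and CREBBP (p300 and CBP) are large paralogous coactivators that many transcription factors recruit, among them the NOTCH and Mastermind complex that drives much of T-ALL. KAT2A and KAT2B (GCN5 and PCAF) are the alternative catalytic subunits of the SAGA and ATAC complexes. KAT5, KAT6A, KAT6B, KAT7 and KAT8 share the MYST catalytic fold and work in the TIP60, MOZ, MORF, HBO1, MSL and NSL complexes.

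Values were RPKM, reads scaled for gene length and library total, so every change is relative to the other genes of a library. Levels compared between genes depend on the gene lengths used, which no source used here gives. Footprint depth was estimated at 1.66 to 2.38 M reads per library. Values above 0 were found for 14491 to 14933 genes in footprints and for 26561 to 28377 genes in RNA. Replicates varied more in footprints, with a median SD per gene of 0.175 (DMSO) and 0.193 (silvestrol) in log2 units, than in RNA, with 0.0391 and 0.0471. All 15 T-cell markers were present, with a mean RNA of 3.61 RPKM or more. All 6 myeloid, 4 erythroid and 5 stromal or epithelial markers were below 1 RPKM, as were 4 of 6 B-cell markers. The B-cell markers CD79A and CD79B were above it, and the higher of them had a mean RNA of 31.4 RPKM.

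KAT2A was the most abundant member in DMSO RNA at 44.2 ± 1.3 RPKM (SD, n = 3), and KAT2B the least abundant at 2.13 ± 0.089 RPKM. Between them, in falling order, lay KAT5 (23.0 RPKM), KAT6A (18.0), KAT7 (15.4), EP300 (14.3), KAT8 (13.2), CREBBP (7.04) and KAT6B (6.21). No neighbours in this order had overlapping library values. After silvestrol the order of RNA levels differed in 1 place, where EP300 (16.2 RPKM) stood above KAT7 (16.0 RPKM), and these 2 overlapped. For comparison, the median DMSO RNA level over 10297 tested genes was 10.5 RPKM.

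In DMSO footprints KAT2A led again at 19.6 ± 1.1 RPKM (SD, n = 2), followed by KAT5 (16.3 RPKM), KAT8 (14.9), KAT6A (10.2), EP300 (9.45), KAT7 (6.48), CREBBP (4.12), KAT6B (3.17) and KAT2B (0.473). KAT5 and KAT8 overlapped, as did KAT6A and EP300. The ratio of footprint to RNA RPKM in DMSO was 1.12 in KAT8, above 77.1% of tested genes, and lay between 0.420 (KAT7) and 0.707 (KAT5) in the other 7 tested members. The median of all tested genes was 0.740. These ratios, and the order of footprint levels, also depend on the gene lengths used and on the coding share of each gene. After silvestrol EP300 (5.05 RPKM) overlapped with KAT7 (4.69 RPKM) and no longer with KAT6A (9.68 RPKM).

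**Figure D1:**
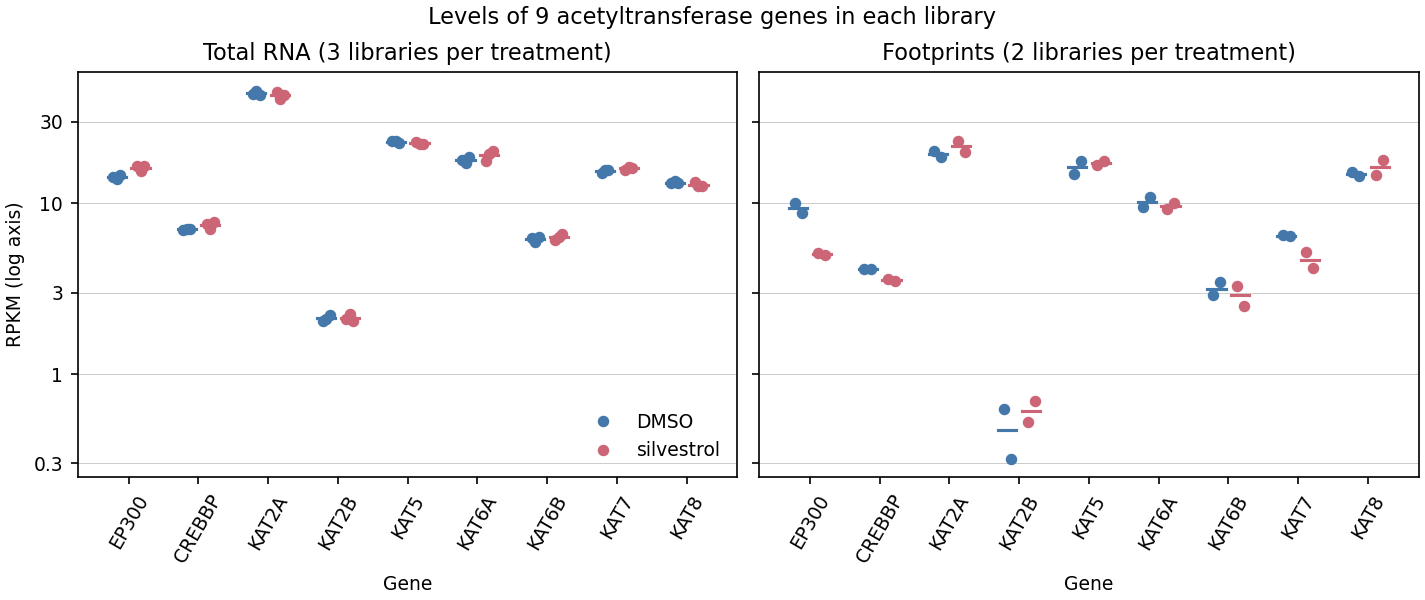
RPKM on a log axis in each library (points) with the group mean (bar), total RNA on the left and footprints on the right. EP300 footprints sit at 8.79 and 10.1 in DMSO and at 4.97 and 5.13 in silvestrol, while its RNA is slightly higher in silvestrol.

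Genes were tested where the mean RPKM was at least 1 in both assays, which 8 of the 9 members met. KAT2B did not, with a footprint mean of 0.542 RPKM. Translational efficiency is the change in footprints relative to the change in RNA, on the log2(RPKM + 0.5) scale. Among the 8 tested members, limma called 0 in translational efficiency, 0 in footprints and 0 in RNA at an adjusted p under 0.05. The background was 0.0874% of tested genes called lower and 0.0194% called higher in translational efficiency, 0.0291% and 0.0194% in footprints, and 0.00971% and 0.272% in RNA. At an unadjusted p under 0.05 there was 1 of 8 members in each comparison, EP300 each time, beside 7.38% of all tested genes in translational efficiency, 6.98% in footprints and 9.23% in RNA. The median log2 change of the 8 members was -0.15 in translational efficiency, -0.09 in footprints and 0.04 in RNA, beside -0.08, -0.07 and 0.00 over all tested genes.

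EP300 had the lowest log2 change of the members in translational efficiency and in footprints. Its footprint level was 10.1 and 8.79 RPKM in the DMSO libraries and 5.13 and 4.97 RPKM in the silvestrol libraries. The groups did not overlap, and the silvestrol mean was 53.5% of the DMSO mean. These values rest on an estimated 287 and 182 reads in DMSO and 152 and 126 in silvestrol. EP300 RNA was 14.3, 13.9 and 14.6 RPKM in DMSO and 16.6, 15.4 and 16.6 RPKM in silvestrol, so all 3 silvestrol libraries were above all 3 DMSO libraries. The footprint to RNA ratio of the group means was 0.662 in DMSO and 0.312 in silvestrol.

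On the log2 scale the EP300 footprint change was -0.84 (SE 0.22, 95% interval -1.37 to -0.31, adjusted p = 0.6). The RNA change was 0.18 (SE 0.04, 95% interval 0.09 to 0.26, adjusted p = 0.102). Together these gave a change in translational efficiency of -1.02 (SE 0.26, 95% interval -1.58 to -0.45, adjusted p = 0.304), a lower value than in all but 260 of 10297 tested genes. These intervals are for 1 gene and are not adjusted for the number of genes tested. Among 5961 genes with a mean of at least 5 RPKM in both assays, 47 had a lower value.

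The call for EP300 depended on how the spread was estimated. A fit with 1 spread for footprints and RNA gave many false calls on simulated data, so it was not the main fit. In it EP300 was called lower in translational efficiency (adjusted p = 0.0035), as were 3.99% of tested genes, while 1.3% were called higher. Without each library in turn, an alternative chosen after the data were seen, its adjusted p in that fit ran from 8.1e-04 to 0.0242. Without the filter on low values EP300 was also called lower (adjusted p = 0.0310). That fit called 167 genes lower and 104 higher of 34844 tested. The EP300 log2 change was the same there, with an SE of 0.15 in place of 0.26. In RNA EP300 was called higher only without silvestrol replicate 2 (log2 change 0.21, adjusted p = 0.0455), where 30 of 10297 tested genes were called higher.

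CREBBP, the paralog, changed less in value. Its footprints were 4.13 and 4.11 RPKM in DMSO and 3.60 and 3.52 RPKM in silvestrol, from an estimated 106 to 145 reads per library. The groups did not overlap, and the silvestrol mean was 86.4% of the DMSO mean. CREBBP RNA was 6.97, 7.06 and 7.08 RPKM in DMSO and 7.56, 7.03 and 7.78 RPKM in silvestrol, and these groups overlapped. The change in translational efficiency was -0.26 (SE 0.28, 95% interval -0.88 to 0.35, adjusted p = 0.910), an interval that also holds a small gain. It does not reach the EP300 estimate of -1.02, but it overlaps the EP300 interval of -1.58 to -0.45.

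The response of the paralogs was compared within each library. The log2 difference of EP300 minus CREBBP in footprints was 1.10 ± 0.13 (SD, n = 2) in DMSO and 0.45 ± 0.0093 (n = 2) in silvestrol, a shift of -0.65. Exact two-sided permutation of the 4 libraries gave p = 0.333, the smallest p that 2 against 2 allows (adjusted p = 0.667 over 6 comparisons of paralogs). In RNA the same difference was 0.97 ± 0.035 (n = 3) and 1.07 ± 0.021 (n = 3), a shift of 0.10 (exact permutation p = 0.1, the smallest possible, adjusted p = 0.6). The footprint difference between EP300 and CREBBP was thus smaller in both silvestrol libraries than in both DMSO libraries, and the design cannot bring this under 0.05.

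**Figure D2:**
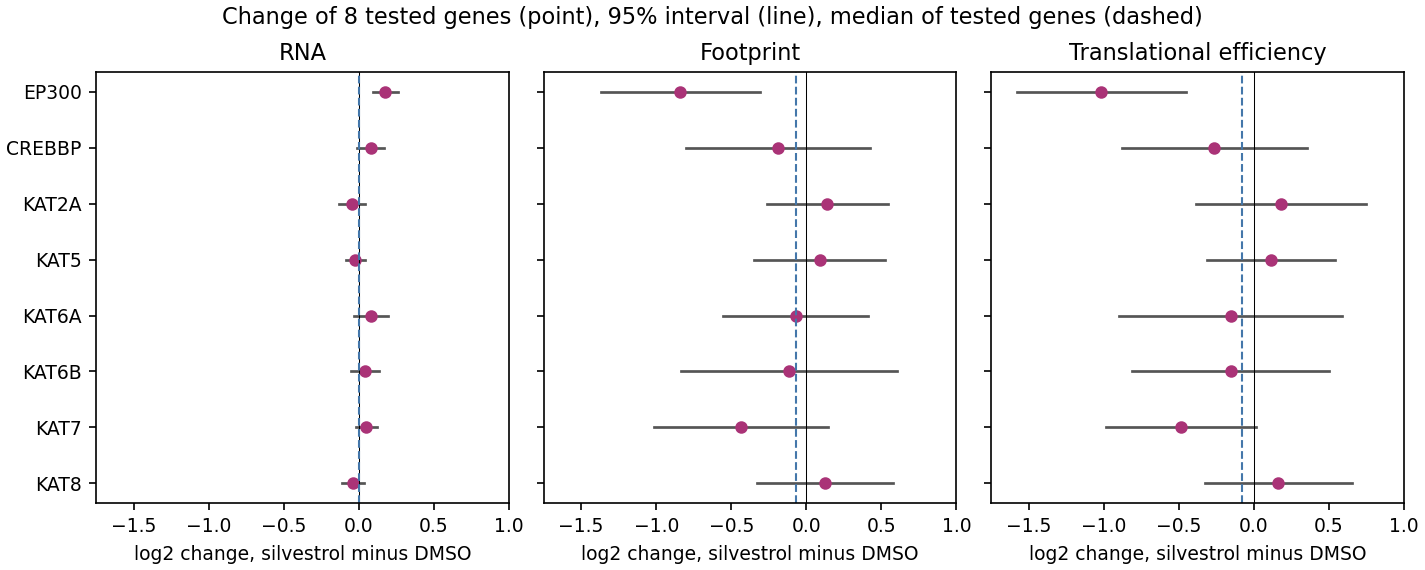
The log2 change (silvestrol minus DMSO) of the 8 tested genes in RNA, footprints and translational efficiency, with the 95% interval from limma as a line and the median of all tested genes dashed. The intervals of EP300 lie away from 0 in all 3 panels before adjustment over genes, and those of the other 7 genes include 0.

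The series title names RNA G-quadruplexes, folds of G-rich RNA, so the 5' untranslated regions (UTRs) of the members were read from 1 GENCODE 29 transcript per gene. EP300 had the longest, 1219 nt at 72.8% GC, longer than 98.5% of those of 8829 tested genes, whose median was 198 nt. CREBBP followed with 810 nt at 81.0% GC, then KAT6B (550 nt), KAT2B (455 nt), KAT6A (451 nt), KAT8 (335 nt), KAT7 (280 nt), KAT5 (234 nt) and KAT2A (54 nt). A run of 4 repeats, CGGCGGCGGCGG or GGCGGCGGCGGC, was searched on the mRNA strand, since only that strand is in the mRNA. The EP300 5' UTR held 1 such run, that of CREBBP 6, KAT2B 2 and KAT6B 1, and those of the other 5 members none. The share was 4.72% over the 8829 tested genes with a 5' UTR. It was 7.61% in 184 of them with a 5' UTR within 25% of the length of EP300. In 509 within 25% of the length of CREBBP it was 4.72%. A pattern of 4 G runs of at least 3 G, with 1 to 7 bases between, was in 10.9% of the 8829 genes. Its share was 25.0% near the length of EP300 and 25.5% near that of CREBBP. The pattern occurred 2 times each in CREBBP and KAT2B and in no other member.

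The sites nearest the start codon are shown for EP300, CREBBP and KAT6B, the tested members with a repeat. KAT2B, which was not tested, is left out. The run is in capitals and flanks are in lower case, 5′ to 3′ on the mRNA strand. Coordinates are those of the 30 bases shown, flanks included, on GRCh38, the build of GENCODE 29, while the submitters' processing notes name hg19. Distances to the start codon are counted from the end of the capitals. The EP300 site lies 545 bases before the start codon (chr22:41092439-41092468, + strand). The CREBBP repeat lies 224 bases before it (chr16:3880135-3880164, - strand) and its G-run pattern 249 bases before it (chr16:3880163-3880192, - strand). The KAT6B repeat lies 429 bases before it (chr10:74826664-74826693, + strand).
EP300 repeat: gggccggtgCGGCGGCGGCGGcgcggagcg
CREBBP repeat: cgcggcCGGCGGCGGCGGCGGCGGccgggg
CREBBP G-run pattern: tcGGGAGGCGGGCAGGGGATGAGGGGGccg
KAT6B repeat: cctacccctGGCGGCGGCGGCagcggtggc
The 3 tested members with a repeat had changes in translational efficiency of -1.02 (EP300), -0.26 (CREBBP) and -0.16 (KAT6B), and the 5 without one ran from -0.48 (KAT7) to 0.18 (KAT2A). Whether the changes go with these letters was not tested. A match to these letters is a description of the sequence and not of a fold. Other transcripts of these genes have other 5' UTRs, and which of them KOPT-K1 cells use was not tested.

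**Figure D3:**
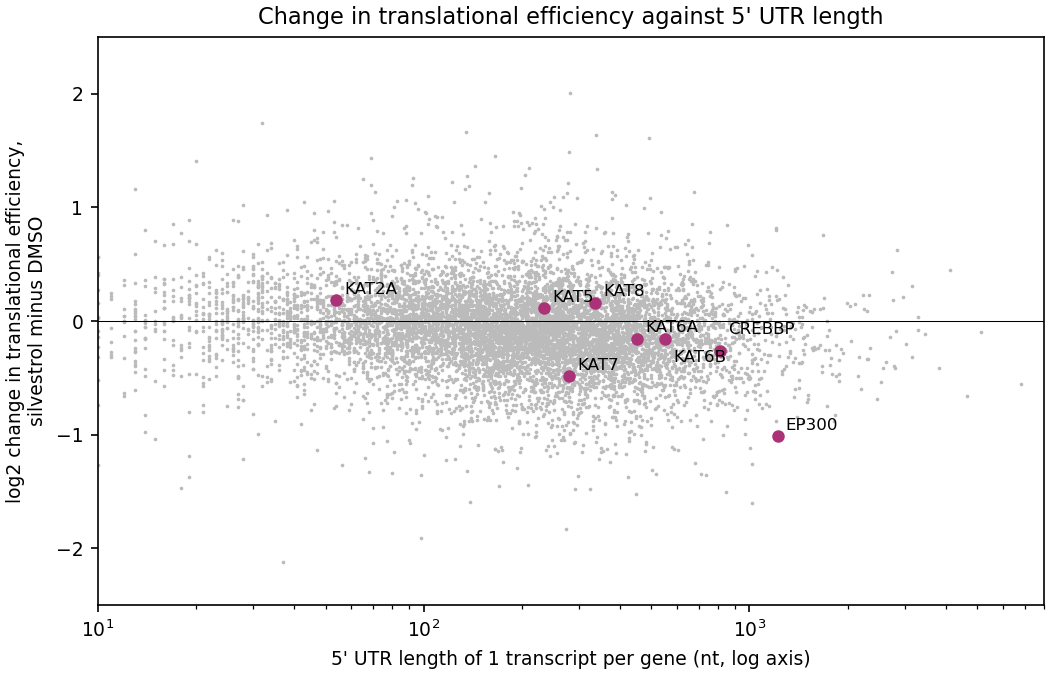
The log2 change in translational efficiency against the 5' UTR length on a log axis for tested genes (grey) and the 8 tested members (named); 72 other genes lie outside the axes. EP300, at 1219 nt, has a change of -1.02, beside a median of -0.19 in the 208 tested genes with at least 1000 nt.

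KAT2A, the catalytic subunit of SAGA and ATAC in its more abundant form here, had footprints of 20.3 and 18.8 RPKM in DMSO and 23.2 and 20.0 RPKM in silvestrol. The groups overlapped. Its RNA ranged from 43.1 to 45.7 RPKM in DMSO and from 40.7 to 44.9 RPKM in silvestrol. The change in translational efficiency was 0.18 (SE 0.26, 95% interval -0.38 to 0.75, adjusted p = 0.937), and without 1 library in turn it ran from 0.077 (without silvestrol footprint replicate 1) to 0.287 (without silvestrol footprint replicate 2). KAT2A has the shortest 5' UTR of the members.

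KAT2B, its paralog, had footprints of 0.626 and 0.32 RPKM in DMSO and 0.523 and 0.698 RPKM in silvestrol, from an estimated 3 to 8 reads per library. Its RNA was 2.13 ± 0.089 RPKM (SD, n = 3) and 2.14 ± 0.11 RPKM (n = 3). A change in its footprints was not detectable at this depth. Fitted without the filter on low values, the footprint change was 0.20 (95% interval -1.20 to 1.61, adjusted p = 1). The paralog difference of KAT2A minus KAT2B moved by -0.07 in footprints and -0.05 in RNA (exact permutation p = 0.667 and 0.6, adjusted p = 0.8 for each).

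KAT7 (HBO1), which acetylates histones around replication origins and gene bodies, was the MYST member with the lowest change. KAT7 footprints were 6.53 and 6.43 RPKM in DMSO and 5.18 and 4.20 RPKM in silvestrol, from an estimated 100 to 174 reads per library. The silvestrol libraries lay below the DMSO libraries, at 72.4% of the DMSO mean. Its RNA was 15.4 ± 0.29 RPKM (SD, n = 3) and 16.0 ± 0.40 RPKM (n = 3), and these groups overlapped. The change in translational efficiency was -0.48 (SE 0.23, 95% interval -0.98 to 0.01, adjusted p = 0.678), and it was not called with 1 spread for both assays either (adjusted p = 0.0595). Exons of KAT7 overlap those of FAM117A on the other strand (mean footprints 6.96 RPKM). No source used here says whether counting used strand, so reads of the 2 genes may not be told apart there.

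KAT5 (TIP60), the catalytic subunit of the TIP60 complex in transcription and DNA repair, had footprints of 14.8 and 17.7 RPKM in DMSO and 16.7 and 17.8 RPKM in silvestrol. KAT5 RNA was 23.0 ± 0.35 RPKM (SD, n = 3) and 22.6 ± 0.35 RPKM (n = 3). Its change in translational efficiency was 0.11 (SE 0.20, 95% interval -0.31 to 0.54) and turned to -0.01 without DMSO footprint replicate 1. KAT5 shares exon sequence with RNASEH2C on the other strand (mean footprints 12.4 RPKM), with the same limit on strand.

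KAT8 (MOF), the main acetyltransferase of histone H4 in the MSL and NSL complexes, had footprints of 15.3 and 14.4 RPKM in DMSO and 14.6 and 18.0 RPKM in silvestrol. The groups overlapped, and RNA was 13.2 ± 0.23 RPKM (SD, n = 3) and 12.9 ± 0.38 RPKM (n = 3). The change in translational efficiency was 0.16 (SE 0.23, 95% interval -0.33 to 0.65, adjusted p = 0.932), and it ran from 0.016 without silvestrol footprint replicate 2 to 0.309 without silvestrol footprint replicate 1.

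KAT6A (MOZ), a regulator of haematopoietic stem cells that leukaemic fusions involve, had footprints of 9.53 and 10.9 RPKM in DMSO and 9.26 and 10.1 RPKM in silvestrol. Its RNA was 18.0 ± 0.75 RPKM (SD, n = 3) and 19.1 ± 1.4 RPKM (n = 3), and its change in translational efficiency was -0.15 (95% interval -0.89 to 0.59). KAT6B (MORF) had footprints of 2.89 and 3.45 RPKM in DMSO and 3.27 and 2.52 RPKM in silvestrol, with a change of -0.16 (95% interval -0.81 to 0.50). Both paralogs overlapped between treatments in each assay. The difference of KAT6A minus KAT6B moved by 0.04 in footprints and by 0.04 in RNA (exact permutation p = 1 and 0.3, adjusted p = 1 and 0.667).

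Over the 8 tested members, footprints of 3 (EP300, CREBBP and KAT7) were lower in both silvestrol libraries than in both DMSO libraries, and 0 were higher, where 25.2% and 13.1% of all tested genes were. In RNA, 1 member (EP300) was higher without overlap and 0 were lower, where 8.97% and 3.99% of tested genes were.

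The genes whose pattern over the 10 libraries was nearest to that of EP300 were HCFC1, PIK3C2B and MED13L, at Euclidean distances of 0.229, 0.291 and 0.294 on the log2 scale after subtraction of each gene's DMSO mean, against a median of 1.24 over 10031 genes. Their changes in translational efficiency were -0.86, -0.81 and -0.82, and limma called none of the 3 (adjusted p = 0.304, 0.615 and 0.586). Changes close to that of EP300 follow from the choice of these genes by their distance to it. The nearest to CREBBP were RABGEF1, DHX37 and ZNF215, at 0.134, 0.136 and 0.145 against a median of 0.578.

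The partners of the acetyltransferases were described from 7 lists holding 120 genes, of which 118 were matched and 109 tested. In translational efficiency limma called 0 of the 109, in footprints 0 and in RNA 1, which was higher. Over all tested genes 0.0874% were called lower and 0.0194% higher in translational efficiency, 0.0291% and 0.0194% in footprints, and 0.00971% and 0.272% in RNA. Unadjusted p-values under 0.05 in translational efficiency were seen in 3 of 11 MSL and NSL subunits, in 1 of 18 other acetyltransferases and in 0 genes of the other 5 lists, beside 7.38% of all tested genes. In footprints they were seen in 1 gene of the 109, also an MSL and NSL subunit, beside 6.98% of all tested genes.

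HCFC1, a scaffold that is part of the NSL complex with KAT8, had the lowest change in translational efficiency of the 109. HCFC1 footprints were 38.7 and 35.0 RPKM in DMSO and 22.2 and 19.8 RPKM in silvestrol, from an estimated 363 to 791 reads per library. The groups did not overlap, while its RNA was 44.2 ± 0.71 RPKM (SD, n = 3) and 46.3 ± 2.0 RPKM (n = 3). The change in translational efficiency was -0.86 (SE 0.23, adjusted p = 0.304, and 0.0044 with 1 spread for both assays). MSL2, a ubiquitin ligase of the MSL complex, was the 1 gene of the 109 called in RNA, where it was higher after silvestrol. MSL2 RNA averaged 28.0 RPKM in DMSO (SD 0.32, n = 3), against 32.0 RPKM after silvestrol (SD 0.58, n = 3). Its RNA change on the log2 scale was 0.19 with an adjusted p of 0.0272. Its footprints were 17.6 and 19.4 RPKM in DMSO and 13.4 and 15.4 RPKM in silvestrol, and the change in translational efficiency was -0.54 (adjusted p = 0.508, and 0.0239 with 1 spread).

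The other MSL and NSL subunits reached 0.18 in KANSL2, and the list median was -0.10. Most of all tested genes were below 0 in translational efficiency, with a median of -0.08. The 22 tested SAGA and ATAC subunits had a median of -0.21 and ran from ATXN7L3, an adaptor of the SAGA deubiquitinase (-0.49), to TAF6L (0.52). Both extremes rest on libraries that disagree. ATXN7L3 footprints were 4.76 and 1.02 RPKM in silvestrol, and TAF6L footprints were 12.6 and 6.12 RPKM in DMSO. The 17 TIP60 subunits had a median of 0.03, from the histone variant chaperone VPS72 (-0.42) to MEAF6 (0.37). The 9 subunits of the MOZ, MORF and HBO1 complexes had a median of -0.06, from JADE3 (-0.47) to MEAF6, which both lists hold.

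The 18 other tested acetyltransferases and coactivators with reported acetyltransferase activity had a median of -0.16 in translational efficiency. NCOA1, a nuclear receptor coactivator that binds EP300 and CREBBP, had the lowest value (-0.62, SE 0.25, adjusted p = 0.579). NCOA1 footprints were 4.40 and 3.14 RPKM in DMSO and 2.29 and 2.22 RPKM in silvestrol. The tubulin acetyltransferase ATAT1 had the highest value (0.66), with footprints of 1.20 and 3.73 RPKM in DMSO and 5.32 and 2.68 RPKM in silvestrol, which overlap. In RNA the highest change of this list was that of KAT14, an ATAC subunit (0.15, SE 0.03, adjusted p = 0.0983), from 14.3 ± 0.21 RPKM (n = 3) to 15.8 ± 0.25 RPKM (n = 3).

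The last lists hold enzymes and proteins that act on acetylated lysine. The 15 tested deacetylases had a median of -0.01 in translational efficiency, from the mitochondrial SIRT5 (-0.47) to the cytoplasmic SIRT2 (0.32). The 20 tested bromodomain genes, whose proteins bind acetylated lysine, had a median of -0.14, from ATAD2B (-0.43) to the chromatin remodelling subunit BPTF (0.11). All 7 list medians stand beside the median of -0.08 over all tested genes, most of which were thus below 0.

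In footprints alone the extremes of the lists were mostly the genes named above, at -0.62 in NCOA1 and 0.68 in ATAT1, -0.48 in ATXN7L3 and 0.54 in TAF6L, and -0.80 in HCFC1. Besides these, MRGBP had the lowest value of the TIP60 list (-0.45) and BRD7 that of the bromodomain list (-0.43). RNA changes were small. The highest RNA change of the SAGA and ATAC list was 0.16 in SGF29, which binds methylated histone H3. That of the TIP60 list was 0.11 in EPC2, of the bromodomain list 0.11 in PHIP, of the MOZ, MORF and HBO1 list 0.08 in JADE2 and of the deacetylases 0.07 in SIRT7. The lowest RNA change within each list was -0.06 in DR1 (SAGA and ATAC) and in MORF4L2 (TIP60), -0.04 in OGT (MSL and NSL) and in PBRM1 (bromodomain genes), -0.03 in NCOA3 (other acetyltransferases) and in HDAC9 (deacetylases), and -0.02 in MEAF6 (MOZ, MORF and HBO1).

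**Figure D4:**
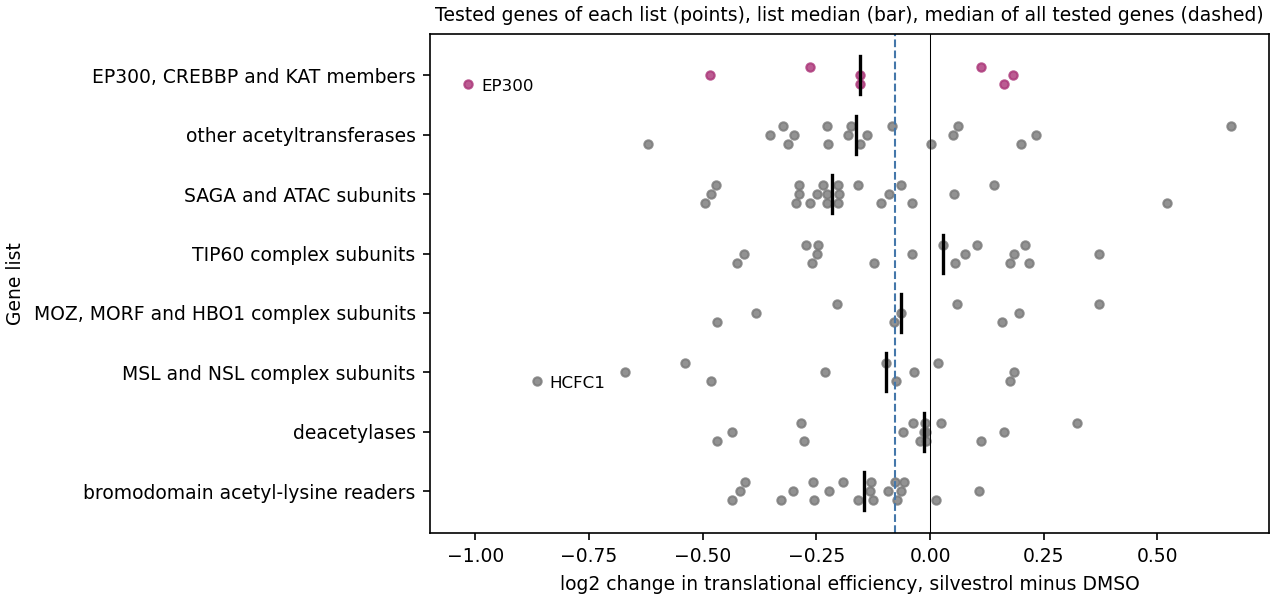
The log2 change in translational efficiency of the tested genes in the member list and in 7 lists of partners (points), with each list's median (bar) and the median of all tested genes (dashed). EP300 (-1.02) and HCFC1 (-0.86) are the lowest points, and most others lie between -0.50 and 0.40.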

How the data were processed

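Per the file headers, the authors deposited RPKM values for 1 library per file. Per the submitters' processing notes, STAR and hg19 were used, with no version or role. The sources used here do not name the counter, annotation, gene lengths, strand or treatment of multi-mapping reads. Symbols came from a table of Ensembl IDs. The members, lists and tests were chosen with earlier results of these data known. Besides the members, the genes named in each list are those called and those with the lowest and highest change, and the 3 genes nearest to EP300 and to CREBBP.

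Libraries were taken as deposited and transformed to log2(RPKM + 0.5). R 4.3.3 and limma 3.58.1 were used (lmFit, eBayes with trend and robust, Benjamini-Hochberg over 10297 genes). Translational efficiency was the interaction of assay and treatment over 10 libraries with weights estimated per assay (0.119 for footprints, 4.12 for RNA), since footprints varied more. Footprints and RNA were also fitted alone. Tests were two-sided. The fitting code was first checked on simulated data, where the fit with 1 spread for both assays gave many false calls. The simulation assumed the depths and used 1 spread per assay for every gene, so it may differ from these libraries. Estimated footprint reads use the library total at which low values of genes with 1 transcript become whole reads, with GENCODE 29 exon lengths. These read numbers are thus rough. At the totals chosen, 90.6% to 91.4% of such values lay within 0.05 of a whole read. The totals were chosen to make this share largest, so it is no check of them. RNA totals were not estimated. Alternatives covered pseudocount, filter, scaling (medians, or trimmed means of M-values, TMM), spread, replicate block and each left-out library.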

Additional observations from a re-analysis of the deposited data

How the results depend on the processing

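No member other than EP300 was called in any comparison under any alternative run, and EP300 kept a negative change in translational efficiency (-1.11 to -0.92) and footprints (-0.93 to -0.74) and a positive one in RNA (0.16 to 0.21) under all of them. The fits with 1 spread for both assays and 1 library left out were run for EP300 only. Depth limits KAT2B most, whose footprints came to roughly 3 to 8 reads in each library. The cause of the moves below was not tested, unless fewer samples or other genes tested are named.

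Genes called lower and higher in translational efficiency, 9 and 2, became 411 and 134 with 1 spread for both assays and 167 and 104 without the filter, and at a mean of at least 5 RPKM 1 gene was higher. Leaving out 1 library gave 6 to 32 lower and 2 to 12 higher. In footprints, 3 and 2 became 135 and 145 without the filter, 0 lower with a pseudocount of 0.1 or a mean of at least 5 RPKM, 0 and 1 with eBayes without trend and robust, and 5 higher with TMM factors, and 0 of each (0 to 0) with any 1 library left out. In RNA, 1 and 28 became 0 and 0 without the filter, 2 lower at a mean of at least 5 RPKM, 0 lower with TMM factors, and 0 and 4 with eBayes without trend and robust. Leaving out 1 RNA library gave 0 to 5 lower and 0 to 30 higher.

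The replicate block gave 11 lower and 2 higher in translational efficiency, 0 and 1 in footprints and 8 and 49 in RNA, and changed no call of a member. The samples share only a number: deviations of same-numbered libraries correlated at -0.03 in footprints and at 0.04, -0.33 and 0.15 in RNA, so not every library correlated best with its own number.

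Signs turned for values near 0. In footprints KAT6A became 0.00122 with TMM factors and 0.020 without DMSO replicate 2 (from -0.165 without 1 library), KAT5 became -0.037 without DMSO replicate 1 (to 0.21), KAT6B became 0.043 without silvestrol replicate 2 (from -0.277), and KAT8 -0.023 without silvestrol replicate 2 (to 0.270). In translational efficiency KAT5 became -0.012 without DMSO footprint replicate 1 (to 0.238) and KAT6B 0.0049 without silvestrol footprint replicate 2 (from -0.315). With no turn of sign, KAT6A ran from -0.246 without DMSO footprint replicate 1 to -0.062 without DMSO footprint replicate 2, and KAT7 from -0.62 to -0.35. The paralog shift of KAT2A minus KAT2B in footprints became 7.8e-05 with a pseudocount of 1 and ran from -0.29 to 0.15 without 1 library (0.11 without DMSO replicate 2, 0.15 without silvestrol replicate 2), and in RNA from -0.093 to 0.023. That of KAT6A minus KAT6B in footprints ran from -0.17 to 0.26. That of EP300 minus CREBBP ran from -0.74 to -0.56 in footprints and from 0.08 to 0.11 in RNA.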
